A study of Rattus norvegicus with 23 samples.

Results

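The libraries compared were 3 control libraries labelled 24 hours and 2 labelled 12 hours, of 23 libraries in the series, and they ask what changes in unexposed brain cell aggregates over those hours. The material was 3D aggregates of Sprague Dawley rat brain cells from embryonic day 15, which had been cultured for 14 days with agitation. All 5 libraries came from aggregates given phosphate-buffered saline (PBS), the vehicle of the series. The 24-hour controls (T24) are called 19, 20 and 22, and the 12-hour controls (T12) are called 10b and 11b, after the names inside the deposited files. Other libraries are used for their values only: controls at 0 and 6 hours (T0, T6), the T12 controls 10, 11 and 12, and aggregates given 120 ng/ml sepiapterin at T6, T12 and T24, with 3 libraries in each group. Nothing in the labels ties the libraries of a group to separate cultures, and p-values therefore reflect only the spread among these libraries, which may be technical.

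Aggregating cultures are made by dissociating fetal brain and letting the cells reassemble under rotation. They are known to hold neurons, astrocytes, oligodendrocytes and microglia that mature together without a blood supply. Control cultures sampled over a day serve as the reference for a treatment, because cultured cells can respond to handling and medium and can keep a daily rhythm. In such a bulk measurement, a smaller number of cells of a type and less RNA per cell cannot be told apart.

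The files identify genes by Ensembl identifier and pair none of them with a symbol, and the reference table used here matched 0 of 32494 identifiers. Genes are therefore given by identifier with no statement of function, the labelled tissue was not checked against its marker genes, and no sequence is shown. Gene lists for clock, immediate early, stress, lipid and cell type genes, 39 in all, could not be tested for the same reason.

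The choice of T12 libraries follows the file names, which disagree with the sample titles. Samples 10 and 11 have 2 libraries each, and the labels state that libraries were prepared in 2 batches, the second with all T24 samples and 2 repeated T12 controls. The files named 10b and 11b bear the titles 10 and 11, and the reverse. Distances between libraries were computed as the root mean square difference in log2 level over 11963 genes. Libraries 10b and 11b lay 0.182 and 0.187 from library 12, a T12 control with no repeat, while libraries 10 and 11 lay 0.151 and 0.147 from it. Toward the T24 controls the order was the other way, with 0.170 to 0.204 for 10b and 11b, 0.186 to 0.239 for 10 and 11, and 0.213 to 0.217 for 12. The T24 controls lay 0.154 to 0.183 from each other, and 10b lay 0.143 from 11b. Libraries 10b and 11b were thus farther from 12 than 10 and 11 were, while the pooled ranges of distance to T24 overlapped. Taken by sample, each repeat named b was the nearer to every T24 control. To 19, 20 and 22, 10b lay 0.184, 0.192 and 0.204 away, against 0.199, 0.218 and 0.239 for 10. Library 11b lay 0.170, 0.184 and 0.186 away, against 0.186, 0.212 and 0.226 for 11.

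Reads assigned to genes numbered 17693252 to 19018553 in the T24 controls and 19616350 and 20587659 in the T12 controls 11b and 10b. Genes with at least 1 read numbered 16608 to 16772 at T24 and 16869 to 16895 at T12. Alignments outside any gene made up 15.35 to 17.10% of those tallied at T24 and 15.29 and 16.00% at T12. Depth and genes detected thus moved with time, and their part in the results was not tested. Counts of 2 libraries differed by more than sampling noise in every pair within a group, with a chi-square per degree of freedom of 2.59 for 10b against 11b. It was 2.59 for T24 controls 20 and 22, but 4.85 and 7.07 for 19 against 20 and 22, so 19 stood somewhat apart.

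Between 12 and 24 hours 79 of 13622 genes changed in control aggregates, 45 higher and 34 lower at T24. A gene was called changed below a Benjamini-Hochberg adjusted p of 0.05 over all genes tested with edgeR. The calls were 0.58% of the genes tested, 0.33% higher and 0.25% lower, and before adjustment 1624 genes stood below 0.05. The changes were mostly small: the median size of the log2 fold change was 0.38 among the genes that rose and 0.37 among those that fell, against 0.082 over all genes tested. Among the 79 called genes, 17 changed by 1.5-fold or more, 8 of them higher and 9 lower. Of these, 5 changed by 2-fold or more, each of them lower at T24. Over all genes tested, called or not, the fitted change was 1.5-fold or more in 321 and 2-fold or more in 61. For all 79 genes the T24 libraries lay wholly above or wholly below the T12 libraries, as they did for 31.3% of all genes tested. With library size as the only scaling 65 genes were called, 27 higher and 38 lower.

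**Figure D1:**
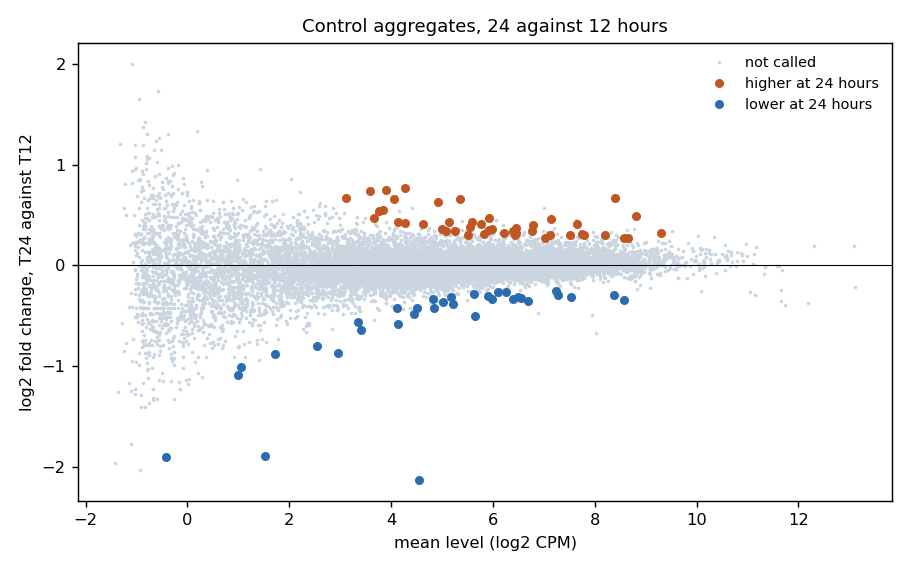
Log2 fold change of T24 against T12 controls (vertical axis) against mean level in log2 counts per 1000000 reads, CPM (horizontal axis), 1 point per gene tested. Coloured points are the 45 genes higher and 34 lower at 24 hours, most within 1.5-fold, and the 3 lowest coloured points lie near -2.

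The calls fell mainly on abundant genes. With the tested genes in 4 equal bins of mean level, 6 genes were called in the lowest bin, all of them lower at T24, and 19, 25 and 29 in the bins above it. The median standard error (SE) of a log2 fold change was 0.24 in the lowest bin and 0.058 in the highest, so a change of given size was less often detectable among rare transcripts. Over all tested genes the median SE was 0.084, which gives a typical 95% interval of 0.17 to either side on the log2 scale.

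ENSRNOG00000014117 showed the largest change. Levels are given as scaled counts per 1000000 reads (CPM). It stood at 45.4 and 46.9 CPM in T12 controls 10b and 11b and at 15.3, 7.63 and 8.47 CPM in T24 controls 19, 20 and 22. All T24 libraries were far below both T12 libraries, and 19 was the highest of them. The mean fell 4.38-fold, from 46.2 ± 1.08 CPM (SD, n = 2) to 10.5 ± 4.19 CPM (SD, n = 3), or -2.13 ± 0.24 (SE) as a log2 fold change, at an adjusted p of 0.024.

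The same gene had a distinct course over the other control groups. It stood at 8.67 to 11.1 CPM at T0, 53.7 to 62.1 CPM at T6 and 40.6 to 46.5 CPM in the T12 controls 10, 11 and 12. The T24 range of 7.63 to 15.3 CPM included the T0 range, so the level was high at 6 and 12 hours and low at both ends of the series. Its rise from T0 to T6 was 6.01-fold, with an adjusted p of 5.4e-08.

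ENSRNOG00000014948 took a similar course at a lower level. It stood at 4.28 and 5.37 CPM in 10b and 11b (88 and 105 reads) and at 2.30, 0.836 and 0.691 CPM in 19, 20 and 22 (43, 15 and 12 reads). The groups did not overlap, and library 19 was again the highest at T24. The log2 fold change was -1.89 ± 0.33 (SE), a 3.70-fold fall, with an adjusted p of 0.024. At T0 the level was 0.148 to 0.226 CPM, from 3 to 5 reads, and at T6 it was 3.81 to 4.77 CPM, so T24 lay between the T0 and T6 ranges. The fitted rise from T0 to T6 was 20.3-fold (adjusted p 2.6e-09).

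The other 3 called genes that changed by 2-fold or more, named here after their values were seen, were rare transcripts that fell. ENSRNOG00000019661 stood at 1.31 and 1.23 CPM in the T12 controls and at 0.214, 0.223 and 0.576 CPM in T24 controls 19, 20 and 22, the last from 4, 4 and 10 reads. Its log2 fold change was -1.91 ± 0.41 (SE, adjusted p 0.036), and it had risen from T0 to T6 with a log2 fold change of 1.54 (adjusted p 0.0037). ENSRNOG00000017645 stood at 2.87 and 2.66 CPM at T12 and at 1.18, 1.56 and 1.15 CPM at T24, a log2 fold change of -1.09 ± 0.23 (adjusted p 0.035). Its controls at T6 stood at 0.996 to 1.09 CPM, below all T12 controls, the first batch included (2.75 to 3.74 CPM). ENSRNOG00000042426 stood at 2.53 and 3.22 CPM at T12 and at 1.66, 1.39 and 1.21 CPM at T24, a 2.01-fold fall (adjusted p 0.043).

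Among the genes that rose, ENSRNOG00000003280 had the largest fold. It stood at 11.7 and 14.4 CPM in 10b and 11b and at 25.7, 20.3 and 20.4 CPM in 19, 20 and 22. The T24 libraries all lay above the T12 libraries, with 19 the highest. The log2 fold change was 0.77 ± 0.14 (SE), a 1.70-fold rise, with an adjusted p of 0.022. Earlier levels were 7.90 to 8.61 CPM at T6, while the T0 libraries were split, at 15.7 CPM in library 142 and 4.28 and 3.82 CPM in 143 and 144.

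ENSRNOG00000001329 rose alongside it by a like amount. It stood at 9.73 and 9.92 CPM at T12 and at 18.6, 16.8 and 13.9 CPM at T24 in 19, 20 and 22, so the groups were apart while the T24 libraries differed among themselves. The log2 fold change was 0.75 ± 0.13 (SE), 1.68-fold, with an adjusted p of 0.018. At T6 the level was 5.67 to 6.75 CPM and at T0 it was 6.20 to 10.8 CPM, and the log2 fold change between T0 and T6 was -0.41 ± 0.19 (SE) with an adjusted p of 0.12.

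**Figure D2:**
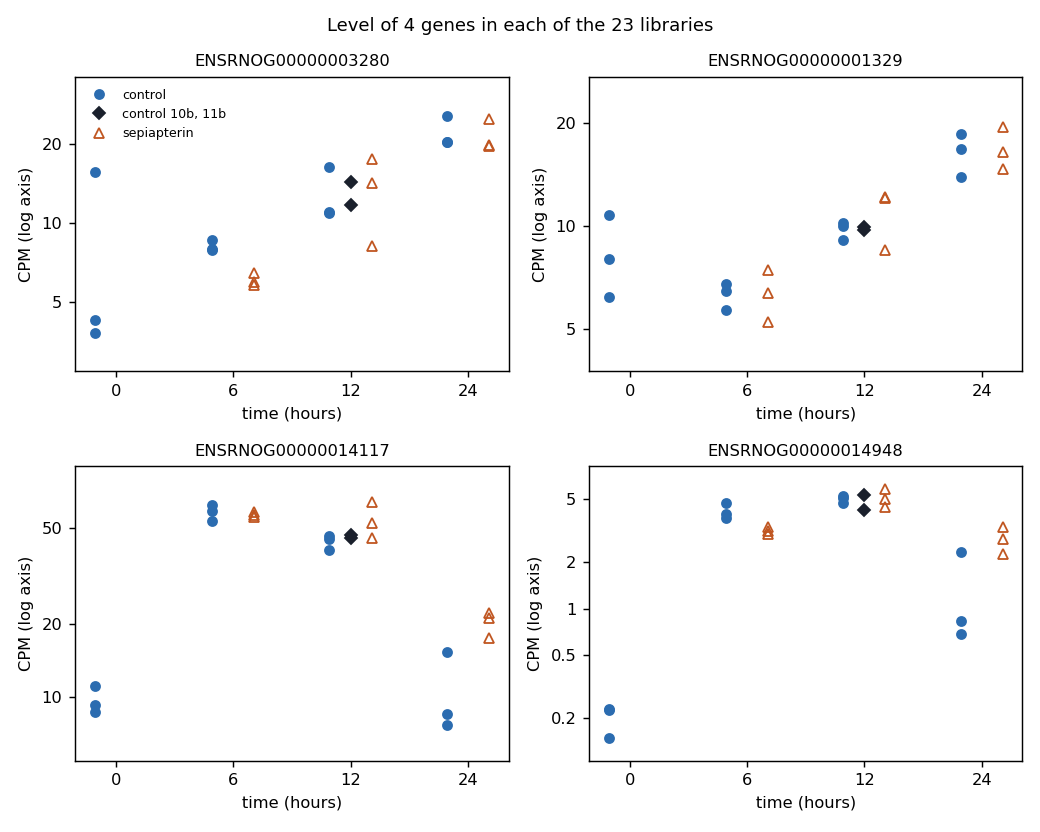
Level in CPM (vertical, log axis) of the 2 genes with the largest rise and the 2 with the largest fall among called genes whose mean log2 CPM was 1 or more, by time in hours (horizontal), 1 symbol per library. Both genes in the lower row are high at 6 and 12 hours and lower at 24 hours, and the sepiapterin libraries at 24 hours (open triangles) lie above the controls there, apart from control 19 for ENSRNOG00000014948, which lies within their range.

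An abundant gene, ENSRNOG00000002919, had the smallest p-value and was looked at for that reason. It stood at 234 and 272 CPM at T12 and at 431, 385 and 386 CPM at T24, with 4800 to 8063 reads per library. The log2 fold change was 0.67 ± 0.07 (SE), 1.59-fold, with an adjusted p of 0.00095. It was also the only gene called when edgeR's glmTreat tested for a change beyond 1.2-fold, with an adjusted p of 0.040. With all 23 libraries in the fit it did not pass (adjusted p 0.52). At T0 it ranged from 205 to 718 CPM, the highest in library 142, and at T6 it stood at 201 to 228 CPM.

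Summed over the 45 genes that rose, the level was 4402 and 4434 CPM in 10b and 11b and 5608 to 5795 CPM in the T24 controls. T12 control 12, a separate sample that had no part in choosing these genes, summed to 4422 CPM, and 10 and 11, repeats of the samples that did, to 4513 and 4543 CPM. The T6 controls summed to 3925 to 4068 CPM. The T0 controls were spread wide, at 6076 CPM in library 142 and 4668 and 4292 CPM in 143 and 144. The sum at T24 was thus above every other control library except T0 library 142. By the file names, only 10b and 11b among these are stated to share the library batch of T24. Against the other control libraries time and library preparation cannot be told apart. The difference between T12 and T24 is the one by which the genes were selected and is given as a description.

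Summed over the 34 genes that fell, the level was 2702 and 2636 CPM in 10b and 11b and 2058 to 2120 CPM at T24. In the other control libraries it was 2681 CPM in T12 control 12, 2661 and 2662 CPM in the repeats 10 and 11, 2541 to 2602 CPM at T6 and 2066 to 2220 CPM at T0. The sums at T24 and T0 overlapped, and both lay below all T6 and T12 libraries. No source used here says in which batch T0 was prepared, and at T0 against T24 time and library preparation cannot be told apart. By the file names the same holds for T6, and for T12 controls 10, 11 and 12, against T24.

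**Figure D3:**
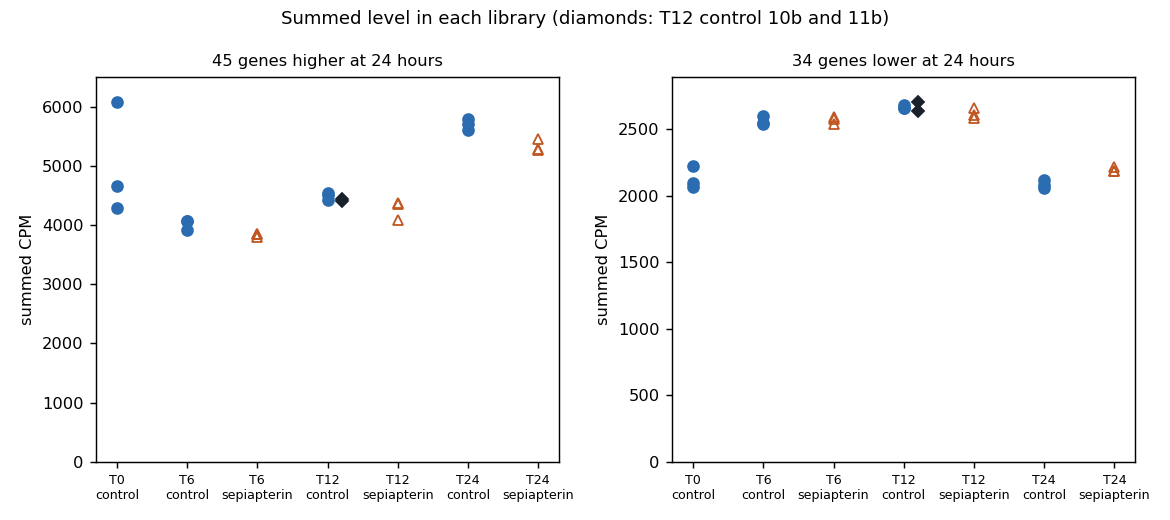
Summed CPM (vertical axis, from 0) of the 45 genes higher at 24 hours (left) and the 34 lower (right), 1 symbol per library, by group (horizontal axis). Filled circles are controls, diamonds the T12 controls 10b and 11b, and open triangles sepiapterin libraries, and the right panel shows control sums of 2541 CPM or more at 6 and 12 hours against 2220 CPM or less at 0 and 24 hours.

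Many of the 79 genes had moved the opposite way in the first 6 hours. The T6 and T0 controls share no library with the comparison of T24 and T12, and all 79 genes were tested there, in 1 fit of the 23 libraries. Of the 34 genes that fell between 12 and 24 hours, 22 had risen from T0 to T6 and 0 had fallen in edgeR's test. Of all 14180 genes, 11.2% rose and 12.6% fell there. At an unadjusted p under 0.05, 23 of the 34 rose and 0 fell, where 2326 and 2739 of all genes did. The median log2 fold change of the 34 genes from T0 to T6 was 0.31, against -0.017 over all genes. Of the 45 genes that rose between 12 and 24 hours, 21 had fallen from T0 to T6 and 2 had risen, and their median was -0.32. The 2 exceptions, named for that reason, were ENSRNOG00000016678 and ENSRNOG00000023548. ENSRNOG00000016678 had a mean of 10.5 ± 4.47 CPM at T0, 21.0 ± 1.49 CPM at T6 (SD, n = 3 each), 27.4 CPM in 10b and 11b and 34.6 CPM at T24, so its mean was higher at each later time. ENSRNOG00000023548 had means of 3.71, 6.21, 5.95 and 9.42 CPM in the same order.

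T0 library 142 stood apart in these genes, and the counts were taken again without it. The number of falling genes that had risen from T0 to T6 was then 23, with a median log2 fold change of 0.41. One that had fallen was added, ENSRNOG00000029778 (log2 fold change -0.32, adjusted p 0.019). Of the genes that rose at T24, 17 had fallen from T0 to T6 and 7 had risen, and the median moved from -0.32 to -0.16. Without library 142, 12.3% of all genes rose and 13.1% fell. Among the rising genes, the counts in both directions thus changed with that library. ENSRNOG00000003280 was among the genes whose call depended on it, with a log2 fold change from T0 to T6 of 0.03 (adjusted p 0.97) with the library and 1.02 (adjusted p 0.034) without it.

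**Figure D4:**
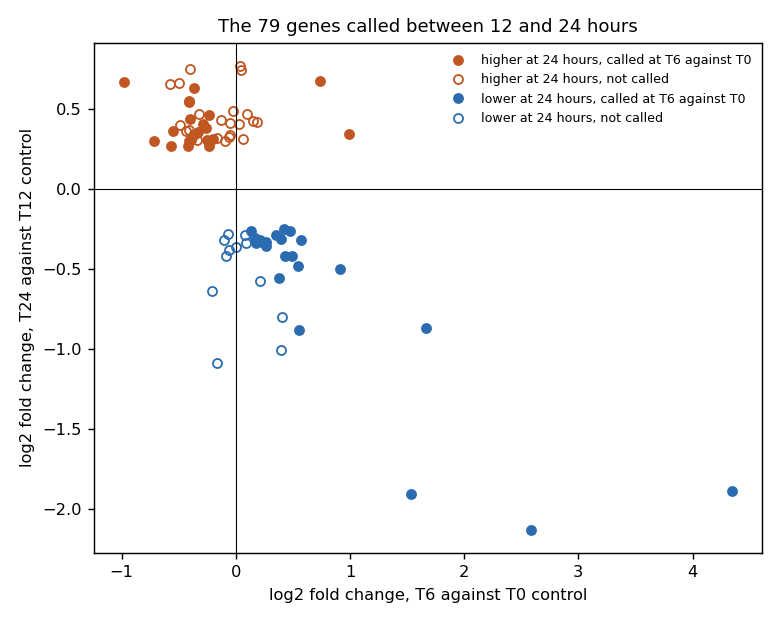
Log2 fold change of T24 against T12 controls (vertical axis) against that of T6 against T0 controls (horizontal axis) for the 79 genes, 1 point per gene, filled where the gene was also called at T6 against T0. Of the 34 genes below the horizontal line 28 lie right of the vertical line, and of the 45 above it 36 lie left. Of all 14180 genes tested at T6 against T0, 6612 had a log2 fold change above 0 and 7568 below.

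From T6 to T12, in the controls 10, 11 and 12, some genes of both sets moved, in both directions. Of the 45 genes that later rose, 4 were higher and 2 lower at T12, and of the 34 that later fell, 5 were higher and 4 lower, where 1.11% and 0.465% of all genes were. The median log2 fold change was 0.17 for the genes that later rose and 0.13 for those that later fell, against 0.0019 over all genes. Libraries 10 and 11 are repeats of the samples of 10b and 11b, so this step is not independent of the one from T12 to T24, and its values are given side by side only.

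Aggregates given sepiapterin, a precursor of the enzyme cofactor tetrahydrobiopterin, gave a view of the same hours in other libraries. T24 and T12 sepiapterin libraries differ in library batch by label, and none of them is among the control libraries compared. The T24 sepiapterin group was in the fit of that comparison, with a part in the low count filter, the scaling and the estimate of spread. All 45 genes that rose in controls had a log2 fold change above 0 with sepiapterin, and 20 rose there while 0 fell in edgeR's test (29 and 0 at an unadjusted p under 0.05). Of all genes 8.39% were higher and 6.06% lower at T24 than at T12 with sepiapterin. At an unadjusted p under 0.05, 2182 of all 14180 genes were higher and 1855 lower. The log2 fold change was above 0 for 6960 of them and below 0 for 7220. Of the 34 genes that fell in controls 33 had a value below 0, 22 passed as lower and 0 as higher (24 and 0 unadjusted). The exception, ENSRNOG00000006302, had a log2 fold change of 0.0001 with sepiapterin and -0.32 in controls. Medians with sepiapterin were 0.30 and -0.26 for the 2 sets, against -0.0037 over all genes.

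Named genes moved by differing amounts under sepiapterin. ENSRNOG00000014117 stood at 45.3 to 64.2 CPM at T12 and 17.5 to 22.3 CPM at T24 with sepiapterin, a log2 fold change of -1.40 ± 0.16 (SE, adjusted p 5.3e-05). ENSRNOG00000014948 stood at 4.47 to 5.81 and 2.22 to 3.32 CPM, a log2 fold change of -0.87 ± 0.20 (adjusted p 0.0054). ENSRNOG00000001329 stood at 8.53 to 12.2 and 14.7 to 19.5 CPM, a log2 fold change of 0.64 ± 0.16 (adjusted p 0.011). ENSRNOG00000003280 stood at 8.20 to 17.6 and 19.7 to 24.9 CPM, a log2 fold change of 0.69 ± 0.35 that did not pass the test (adjusted p 0.21).

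Whether the change over these hours differed with sepiapterin was tested directly, as the sepiapterin effect at T24 minus that at T12, with the controls 10, 11 and 12 at T12. None of the 79 genes passed in edgeR, where 1.18% of 14180 genes did. At an unadjusted p under 0.05 stood 12 of the 79 (4 that rose and 8 that fell), and 17.1% of all genes. The difference was below 0 for 30 of the 45 genes that rose and above 0 for 30 of the 34 that fell. Over all genes it was above 0 for 7221 and below 0 for 6959. For ENSRNOG00000014117 the log2 difference was 0.66 ± 0.25 (SE, adjusted p 0.19), and for ENSRNOG00000014948 it was 1.10 ± 0.33 (adjusted p 0.083). For ENSRNOG00000003280 and ENSRNOG00000001329 the differences were -0.11 ± 0.50 and -0.12 ± 0.23 (adjusted p 0.94 and 0.85). This test shares the T24 controls with the comparison that chose the genes, and intervals this wide do not show that the courses were alike.

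The number of genes called depended on which T12 libraries stood for 12 hours. With 10 and 11, the repeats by title, 757 genes were called, or 5.54% of those tested, 67 of them among the 79. With 10, 11 and 12, which are the first batch by file name, 1450 genes were called, or 10.7%, 75 of them among the 79. By the file names 10 and 11 are first-batch libraries too, and time and library batch cannot be told apart in either comparison. If the titles are right instead, 10b and 11b are the first-batch libraries. Time and library batch then cannot be told apart for the 79 genes, while 10 and 11 share the batch of T24. The mean of the 2 repeat differences (10b minus 10 and 11b minus 11) had a median size of 0.081 log2 units among the 45 rising genes and 0.065 among the 34 falling genes, against 0.091 over all tested genes. Of the 45 rising genes, 23 were lower in both 10b and 11b than in 10 and 11 and 10 were higher in both. Of the 34 falling genes, 10 were lower and 13 higher in both. Over all 13622 tested genes, 4516 were lower and 4727 higher in both. The 79 genes were chosen partly by their levels in 10b and 11b, so these sizes and counts are not independent of that choice. The called genes were also more abundant, with a median of 46.1 CPM at T12 against 28.2 CPM over all genes tested. The values are given as a description only. For ENSRNOG00000014117 the repeats differed by 0.0057 and 0.012 log2 units, and for ENSRNOG00000003280 by 0.087 and -0.17.

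The count of 79 also rested on each library compared. It was 1 without T12 control 10b, 3 without 11b, 17 without T24 control 20, 32 without 22 and 233 without 19, the library that stood apart. Leaving out a T12 control leaves 1, whose spread is then taken from the other groups. The genes called without 11b were ENSRNOG00000002919, ENSRNOG00000000463 and ENSRNOG00000019573, and the gene called without 10b was ENSRNOG00000013552, all of them higher at T24. Of these, ENSRNOG00000000463 stood at 24.4 and 29.9 CPM at T12 and 41.6 to 44.6 CPM at T24, ENSRNOG00000019573 at 9.73 and 12.1 and 16.3 to 18.3 CPM, and ENSRNOG00000013552 at 415 and 360 and 505 to 569 CPM. Without 10b or 11b none of the 4 plotted genes (ENSRNOG00000003280, ENSRNOG00000001329, ENSRNOG00000014117 and ENSRNOG00000014948) passed the test, with adjusted p-values of 0.11 to 0.46, while their log2 fold changes stayed between 0.62 and 0.92 for those that rose and between -2.15 and -1.72 for those that fell. ENSRNOG00000002919 lost its call without 10b (adjusted p 0.062) and ENSRNOG00000013552 without 11b (0.12), and the 3 rare genes that fell 2-fold or more lost theirs without either. ENSRNOG00000014117 also lost its call without T24 control 22 (adjusted p 0.065), and ENSRNOG00000014948 and ENSRNOG00000001329 without 20 (0.099 and 0.088).

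**Figure D5:**
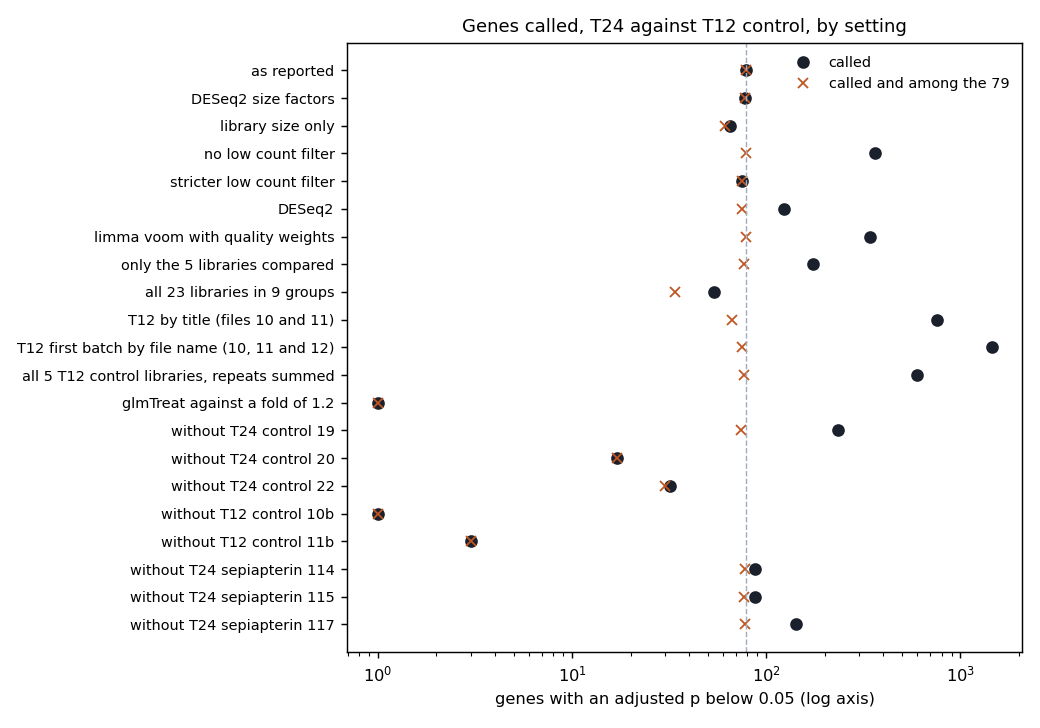
Number of genes called at T24 against T12 (horizontal, log axis) under each setting (vertical axis), with filled circles for all genes called and crosses for those among the 79. Counts run from 1 without T12 control 10b to 1450 with T12 controls 10, 11 and 12, and the dashed line marks 79.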

How the data were processed

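RNA was sequenced from control aggregates as stranded polyadenylated libraries made from 500 ng of total RNA, per the labels' protocols. The authors deposited raw read counts per Ensembl gene, 1 table per library. cutadapt 1.8, STAR 2.5.2b, HTSeq 0.6.1 and the rat build Rnor_6.0 are named in the submitters' processing notes. The strand setting and annotation release were not found in those notes or the labels. Values of genes overlapping on opposite strands are therefore uncertain. So are those of near-identical copies, since alignments with several positions were not assigned to genes. The 5 summary lines per file were left out. They held 14.80 to 17.10% of alignments outside genes, 23.49 to 24.99% with several positions and 0.22 to 0.27% ambiguous. Depth was 16991417 to 26588314 reads in genes over the 23 libraries.

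T24 controls (3) were compared with T12 controls 10b and 11b by edgeR 4.0.16 (R 4.3.3) quasi-likelihood tests with robust spread estimates, TMM scaling and filterByExpr (minimum count 10). The 3 T24 sepiapterin libraries formed another group that adds to the estimate of spread, giving 5 residual degrees of freedom. They also entered the low count filter and the scaling. The Benjamini-Hochberg method adjusted p-values across every gene in the fit. SE is the log2 fold change divided by the root of the test's F. Levels are CPM with TMM scaling over 23 libraries, as mean ± SD. Comparisons of other groups came from 1 fit of 23 libraries in 8 groups, added after seeing the data. Alternatives used DESeq2 1.42.0, limma 3.58.1 voom with quality weights, other scalings, filters and libraries, and leaving out each library.

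Genes were named by a rule: called, a mean log2 CPM of at least 1, no overlap between groups, then the 2 largest rises and the 2 largest falls, since no symbols were matched. Other genes were picked for their values, as stated beside them. The libraries, rule and lists were chosen with earlier results of these data known.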

Additional observations from a re-analysis of the deposited data

How the results depend on the processing

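Against 79 genes called, the count was 362 with no low count filter, 124 with DESeq2, 341 with limma voom and quality weights, and 175 from the 5 libraries compared alone. It was 757 with T12 taken by title, 1450 with T12 controls 10, 11 and 12, 596 with all 5 T12 libraries (repeats summed), and 1 with glmTreat. By the file names, each of these other choices of T12 libraries takes in the first batch. By the titles the main comparison does so instead, and the choice of 10 and 11 does not. Leaving out single libraries gave 1 to 233 among those compared, and 143 without T24 sepiapterin 117. DESeq2 size factors (78), library size only (65), the stricter filter (75), all 23 libraries in 9 groups (54), and leaving out T24 sepiapterin 114 (88) or 115 (87) stayed within 1.5 times. With all 23 libraries the split turned, to 21 higher and 33 lower, with 34 of the 79 genes shared. Some alternatives called more genes in the higher direction, with 86 of 124 in DESeq2, 241 of 362 with no filter and 164 of 233 without T24 control 19.

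Leaving aside glmTreat and the omission of a compared library, 25 of the 79 genes (7 higher, 18 lower) were called in all 14 alternatives. DESeq2 gave no adjusted p for 1 of the 79, which was not counted as lost there. No gene of the 79 was called in all 20. Adjusted p-values over the alternatives ranged from 3.9e-11 to 0.52 for ENSRNOG00000003280, 1.7e-08 to 0.33 for ENSRNOG00000001329, 3.1e-12 to 0.31 for ENSRNOG00000014117 and 4.8e-14 to 0.31 for ENSRNOG00000014948. From the 5 libraries alone ENSRNOG00000014117 and ENSRNOG00000014948 lost their calls (adjusted p 0.093 and 0.065), and with all 23 libraries ENSRNOG00000003280, ENSRNOG00000001329, ENSRNOG00000002919, ENSRNOG00000013552, ENSRNOG00000000463, ENSRNOG00000019573 and ENSRNOG00000017645 did (0.52, 0.12, 0.52, 0.58, 0.51, 0.46 and 0.36). The cause was not tested. No paired analysis was possible because the T24 and T12 controls share no sample number. With 2 libraries at T12, the smallest change called was 0.25 log2 units in size, above the typical interval of 0.17 to either side. Smaller changes went uncalled, and changes in rare genes were the least detectable.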

Other observations

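The 4 genes called with a single T12 library, looked at after their values were seen, were all high in T0 library 142. ENSRNOG00000000463 stood at 57.8 CPM there against 21.3 and 17.6 CPM in T0 libraries 143 and 144, and ENSRNOG00000019573 at 21.2 against 7.93 and 8.62 CPM. ENSRNOG00000013552 stood at 443 against 173 and 159 CPM. ENSRNOG00000002919 stood at 718 against 361 and 205 CPM. In ENSRNOG00000000463, ENSRNOG00000019573 and ENSRNOG00000002919 library 142 was above all T24 controls, which reached 44.6, 18.3 and 431 CPM. In ENSRNOG00000013552 it was below them, at 505 to 569 CPM. T12 sepiapterin libraries varied in ENSRNOG00000002919 too, at 311, 176 and 297 CPM in 105, 106 and 107.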
